A study of Arabidopsis thaliana with 36 samples.

Results

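The comparison described here is that of leaf 6 at T4 with leaf 6 at T2 in the atx1/atx3/atx4 triple mutant of Arabidopsis thaliana, in each of its 2 isolates, TM1 and TM2. It used 12 of the 36 libraries of the series: 3 at T4 and 3 at T2 for TM1, and 3 at T4 and 3 at T2 for TM2. A gene had a shared change when each isolate passed an adjusted p of 0.05 and a 2-fold limit with the same sign. Of the 19437 genes in the deposited table, 249 had a shared change.

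All mutant plants carried homozygous T-DNA insertions in the histone methyltransferase genes ATX1, ATX3 and ATX4. Both isolates held the same insertion alleles and were isolated independently. The sample labels and the study's methods differ on whether they came from 1 cross, and the submitters state that they may differ in other background mutations. Mutant plants were synchronised at bolting, the upward growth of the flowering stem, and were 29 days old at T4 and 27 days old at T2. Wild-type (WT) plants were Col-0 of the same ages, without an insertion and still vegetative. Plants grew in long days under low light, and leaf 6 was taken from 10 plants for each line and time. The leaves were ground as 1 pool that was divided in 3 for libraries, so p-values measure how far libraries made from a shared pool differ, which is technical, and say nothing of differences between plants. Each time point was also a single harvest day, and the effects of time point and of harvest day cannot be told apart.

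ATX proteins methylate lysine 4 of histone H3, a mark found at transcribed genes. Bolting in Arabidopsis goes along with a change in the fate of the rosette leaves, which stop growing, export their nitrogen and later senesce. The leaf epidermis is covered by a cuticle of cutin and wax that is made from fatty acids in the epidermal cells. Leaf cells also hold a large set of quickly induced genes, among them WRKY and ERF transcription factors and calmodulin-like proteins, that respond to touch, wounding and pathogens.

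Expression was deposited as FPKM, the reads of a gene scaled to its length and to the depth of the library. The values of every gene could be turned back into whole reads, which gave 4651905 to 8757969 reads in the 12 mutant libraries and 4405524 to 11709917 reads over the whole series. Changes are given as log2 differences of FPKM + 1 with the standard error of the limma fit, a scale on which the change of a gene with low values is understated. Along the first principal component of the 12 mutant libraries, which held 37.2% of the variance, T4 libraries scored between 17.66 and 37.95 and T2 libraries between -31.11 and -23.69. Markers of mesophyll, guard cells, phloem and epidermis were present in all groups, while 0 of 6 markers of the shoot meristem and 0 of 7 markers of flowers and pollen were in the table.

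In triple mutant leaves 134 genes rose at T4 relative to T2 in both isolates and 115 fell. These were 0.689% and 0.592% of the genes tested, the shares against which counts in gene lists below are to be set. Together they were 1.28%. Of the shared changes 53.8% were higher, against 61.4% under median ratio scaling and 61.6% under quantile normalisation, so the split depends on the scaling. Taken by itself, TM1 had 628 higher genes (3.23%) and 359 lower genes (1.85%), 5.08% in all, and TM2 had 192 higher (0.988%) and 224 lower genes (1.15%), 2.14% in all. The shared higher genes were 21.3% of the higher genes of TM1 and 69.8% of those of TM2, and the shared lower genes were 32% and 51.3% of the lower genes. The auxin-induced gene SAUR29, named after its values were seen, was the single gene past the threshold in opposite directions, with 1.49 ± 0.47 in TM1 and -1.804 ± 0.47 in TM2. WT leaves had 712 higher genes (3.66%) and 260 lower genes (1.34%) over the same days, 5% in all.

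**Figure D1:**
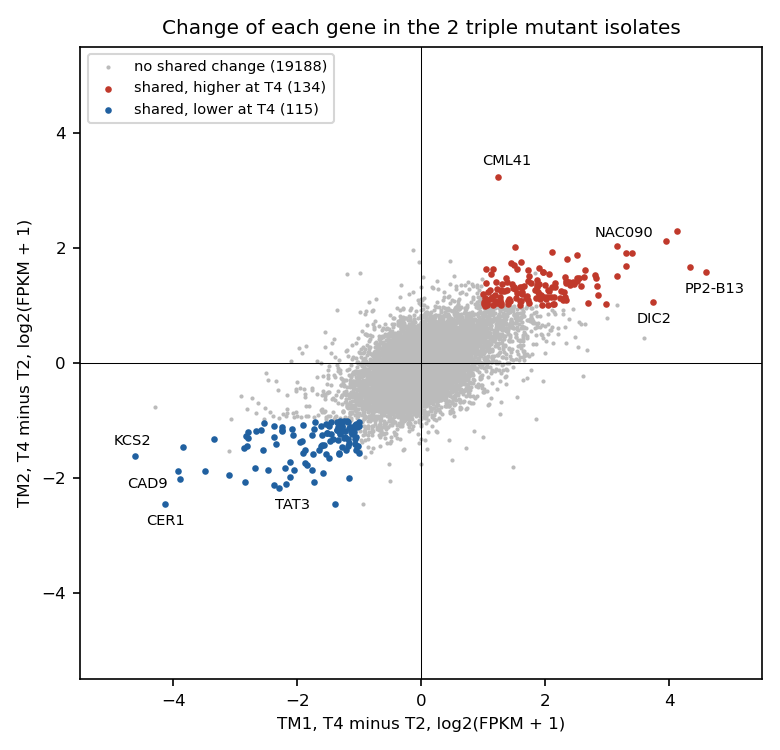
Change of every gene at T4 relative to T2 in TM1 (horizontal axis) and TM2 (vertical axis), as log2 differences of FPKM + 1, with grey points for all 19437 genes and coloured points for the 134 shared higher and 115 shared lower genes. Most coloured points lie farther along the TM1 axis: 110 of the higher and 81 of the lower genes had the larger change in TM1.

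The median change of the shared higher genes was 1.801 in TM1 and 1.28 in TM2, and that of the shared lower genes was -1.53 in TM1 and -1.31 in TM2. Over all genes the median change was -0.05 in the mutants and 0.03 in WT. The 3 T4 libraries lay above the 3 T2 libraries in both isolates for 133 of the 134 higher genes, against 6.79% of all genes tested. They lay below them for 113 of the 115 lower genes, against 8.41% of all genes. The rule had used these values, so the counts are a description. The genes nearest the limit were AT3G19020 at 1.0011 and AOP2 at -1.0018 just inside it, and TIM17-1 at 0.9998 and MYB43 at -0.9988 just outside it, each in the isolate with the smaller change. When each of the 18 mutant and WT libraries of T2 and T4 was left out in turn, 164 of the 249 shared changes were kept every time.

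Among the gene lists, that of the plant cuticle had the lowest median change in the mutants. The lists were chosen with earlier results of these data known, so this rank is a description. Of 25 measured genes of wax and cutin synthesis, 23 had a mean change below 0 over the isolates, as did 11306 of all 19437 genes. In both isolates 5 of the 25 fell and 0 rose, against 0.592% and 0.689% of all genes. The median change of the 25 genes was -1.03, against -0.05 for all genes, and it was -1.50 in TM1, -0.55 in TM2 and -0.26 in WT. The 5 genes were CER1, KCS2, LACS2, CER2 and LACS1. CER1 makes the alkanes of leaf wax, KCS2 elongates very long chain fatty acids, CER2 takes part in that elongation, and LACS1 and LACS2 activate fatty acids for wax and cutin.

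CER1 had the largest mean decrease of all genes tested that shared a change. In TM1 it measured 2.52, 2.95 and 1.75 FPKM in the T4 libraries, against 60.2, 58.9 and 56.2 in the T2 libraries. In TM2 it measured 4.09, 4.16 and 3.77 FPKM at T4, against 25.9, 24.7 and 28.5 at T2. All T2 libraries lay far above all T4 libraries in both isolates, with the higher T2 values in TM1. The change was -4.14 ± 0.19 in TM1 and -2.45 ± 0.19 in TM2, with adjusted p of 8.65e-18 and 2.01e-11 in limma. WT leaves had 1.02, 1.93 and 1.45 FPKM at T4, against 6.59, 7.91 and 8.79 at T2, a change of -1.84 ± 0.19, so CER1 fell in WT as well, and the mutant change minus the WT change was -1.46 ± 0.23 (limma, adjusted p = 1.77e-05). CER1 lies on chromosome 1 at chr1:418416-422579 on the plus strand of TAIR10.1. The 250 bases before its annotated start, chr1:418166-418415 on the plus strand, are shown because CER1 leads the genes that fell. Capitals mark 1 AATATCT and 1 CCGAC, which are the evening element of clock-regulated genes and the core of the cold-response element, both found on the opposite strand.
CER1: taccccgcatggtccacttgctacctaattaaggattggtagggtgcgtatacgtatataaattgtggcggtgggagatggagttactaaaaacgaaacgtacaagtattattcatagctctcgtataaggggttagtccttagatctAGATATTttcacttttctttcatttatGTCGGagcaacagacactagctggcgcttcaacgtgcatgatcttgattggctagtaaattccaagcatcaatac

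KCS2 fell with CER1 but not in WT. It measured 0.843, 0.775 and 1.33 FPKM in the T4 libraries of TM1, against 46.8, 49.2 and 47.0 in its T2 libraries. TM2 had 1.75, 2.73 and 3.47 FPKM at T4, against 10.3, 9.38 and 10.3 at T2. The groups were apart in both isolates, and the T2 libraries of TM1 stood above everything else. WT was low at both times, with 2.99, 2.02 and 2.25 FPKM at T4, against 1.41, 2.71 and 3.51 at T2. The change was -4.63 ± 0.22 in TM1, -1.61 ± 0.22 in TM2 and -0.01 ± 0.22 in WT, where libraries of both times overlapped. KCS2 (chr1:1119699-1122786, minus strand) has a close relative, KCS20, and reads of the pair may have been divided.

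**Figure D2:**
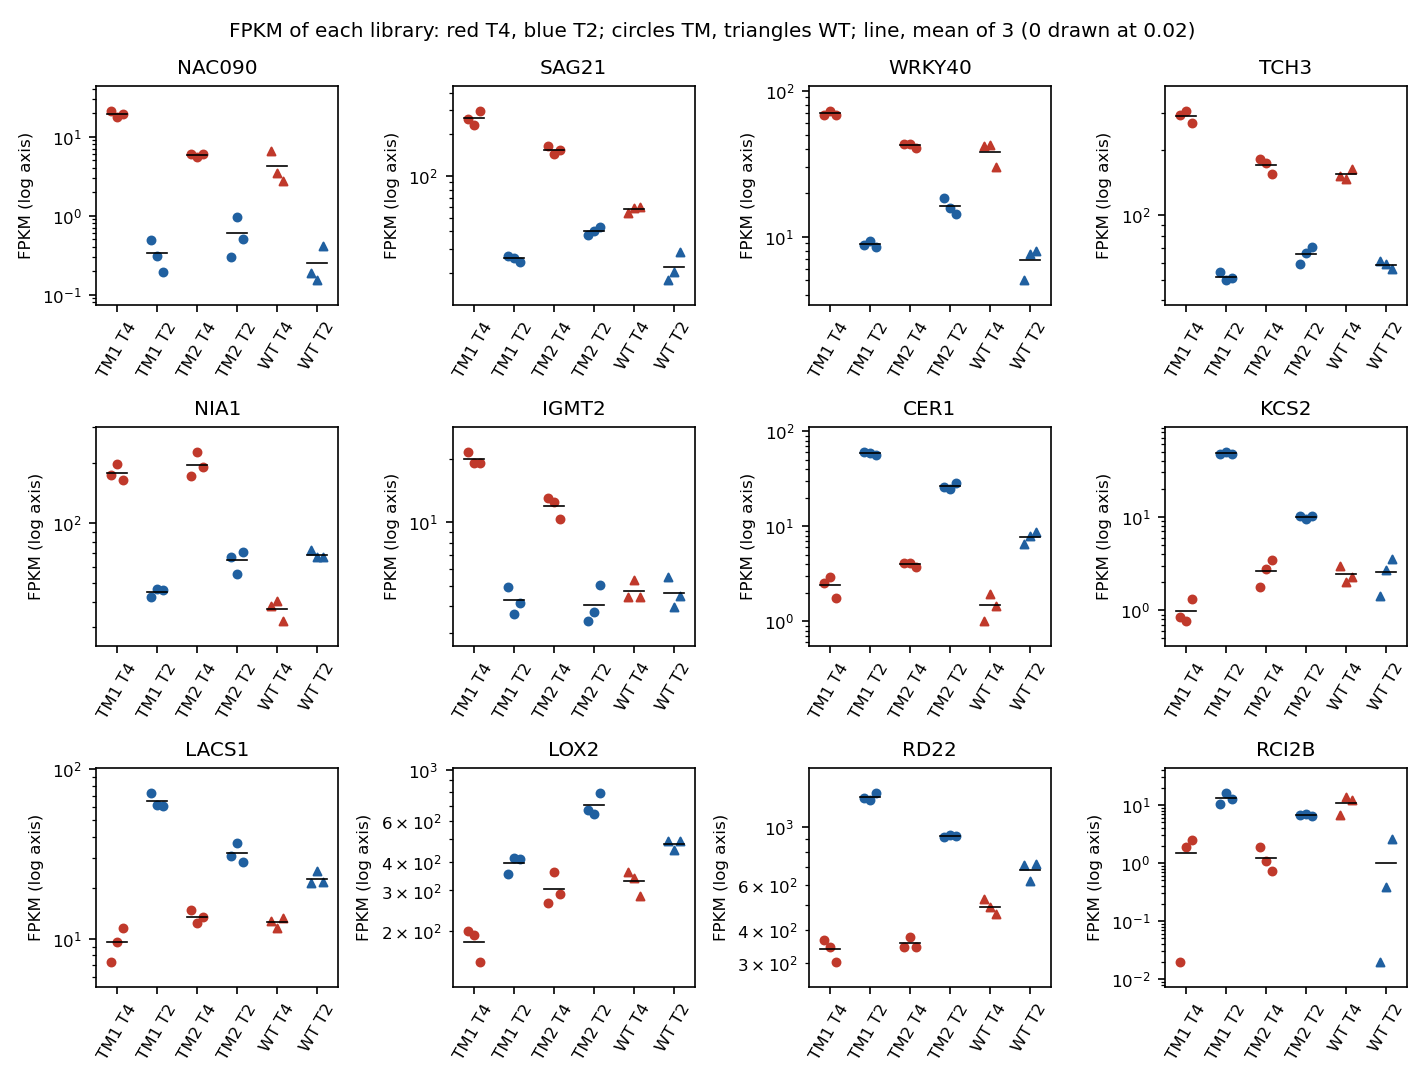
FPKM of single libraries, on a log axis, for genes the text turns on, with T4 left of T2 in TM1, TM2 and WT, points for libraries and bars for means. CER1 and KCS2 show T4 libraries below T2 libraries in both isolates, NIA1 and SAG21 show them above, and the WT libraries of NIA1 run the other way.

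The other cuticle genes followed at smaller sizes. CER2 averaged 6.67 ± 0.649 FPKM at T4 and 52.3 ± 1.73 at T2 in TM1, and 11.3 ± 1.83 at T4 and 27.2 ± 3.51 at T2 in TM2 (SD, n = 3 each). LACS1 changed by -2.66 ± 0.13 in TM1 and -1.17 ± 0.13 in TM2, and LACS2 by -2.79 ± 0.20 and -1.31 ± 0.20. Outside the list, and named after their values were seen, CYP86A2 and CYP86A8, hydroxylases of cutin monomers, and BDG1, a protein needed for a normal cuticle, also fell in both isolates. CYP86A2 averaged 52.5 ± 4.37 FPKM at T4 and 253 ± 2.90 at T2 in TM1, and 78.6 ± 6.36 at T4 and 171 ± 12.0 at T2 in TM2. Its 3 libraries of each time did not overlap in either isolate or in WT, where the change was -0.76. BDG1 changed by -1.62 ± 0.17 over the isolates and lost its call in TM2 without TM2 T4 replicate 2 (-0.92).

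Markers of the epidermis were also lower at T4 in the mutants. KCS6 is both a marker and a member of the cuticle list, so the marker set and the list are not independent. The summed FPKM of 6 epidermal and trichome markers was 228 to 250.1 at T4 and 584.6 to 595.5 at T2 in TM1, and 277.8 to 298.9 at T4 and 420.1 to 444.4 at T2 in TM2. In WT it was 261.9 to 275.5 at T4 and 282 to 318.6 at T2. The median change of the 6 markers was -0.76 in the mutants and -0.04 in WT, and 0 of the 6 had a shared change. KCS6 and KCS10, which are themselves fatty acid elongases of the epidermis, made up most of the sum and changed by -1.03 and -0.96, while the epidermal regulators ATML1 and PDF2 changed by -0.57 and -0.53 and GL2 by -0.43. PDF1 ran otherwise, with -1.02 in the mutants and -1.92 in WT. The summed markers of guard cells and of mesophyll were also lower at T4 in both isolates, without overlap. Their median changes were -0.30 and -0.26 in the mutants, and -0.31 and -0.095 in WT. For phloem and vascular markers the sums overlapped, with medians of -0.04 in the mutants and 0.33 in WT. In these bulk leaves fewer cells of a type and less RNA per cell cannot be told apart, and the part of the epidermal markers in the cuticle result was not tested.

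Cell wall genes were also among those that fell. EXPA16 and EXPA3 are expansins, which loosen the cell wall during growth. EXPA16 measured 3.31, 4.88 and 3.96 FPKM at T4 in TM1, against 55.4, 55.2 and 54.8 at T2, and 10.3, 7.76 and 8.66 at T4 in TM2, against 31.8, 38.5 and 36.3 at T2. Its times were apart in both isolates, and it changed by -3.49 ± 0.19 in TM1 and -1.89 ± 0.19 in TM2. EXPA3 changed by -1.31 ± 0.23 and -1.21 ± 0.23, while in WT it changed by -0.01 ± 0.23. Of 28 measured genes of cell wall loosening, EXPA3 was the 1 that fell in both isolates and 0 rose, with a median of -0.39 that compares with -0.05 for all genes. CAD9, of the cinnamyl alcohol dehydrogenase family that acts in lignin synthesis, averaged 14.4 ± 0.376 FPKM at T4 and 229 ± 14.2 at T2 in TM1, and 25.5 ± 4.24 at T4 and 106 ± 4.66 at T2 in TM2. It fell in all 3 lines, with changes of -3.90 ± 0.11 in TM1, -2.02 ± 0.11 in TM2 and -1.02 ± 0.11 in WT. FLA1 and FLA2, fasciclin-like cell wall glycoproteins named after their values were seen, changed by -1.46 ± 0.14 and -1.23 ± 0.11 over the isolates.

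Of 29 measured genes of jasmonate synthesis, repression and output, a pathway of wound defence, 5 fell in both isolates and 0 rose. Over all genes 0.592% fell and 0.689% rose. The 5 genes were TAT3, VSP2, CLH1, LOX2 and VSP1, and the median of the list was -0.40 in the mutants and 0.16 in WT. TAT3, a tyrosine aminotransferase induced by jasmonate, measured 1.701, 1.095 and 1.89 FPKM at T4 in TM1, against 9.04, 14.9 and 11.0 at T2, and 5.47, 3.92 and 4.35 at T4 in TM2, against 23.53, 25.7 and 23.2 at T2. The libraries of T4 and T2 did not overlap in either isolate. It changed by -2.29 ± 0.22 in TM1 and -2.18 ± 0.22 in TM2, against -0.57 ± 0.22 in WT, where the times overlapped. LOX2 makes a precursor of jasmonate, and its mean level was 180.1 ± 28.4 FPKM at T4 and 393 ± 35.3 at T2 in TM1, and 305 ± 49.3 at T4 and 701 ± 79.7 at T2 in TM2. CLH1 encodes a chlorophyllase, and VSP1 and VSP2 are near-identical vegetative storage proteins whose reads may have been divided. Without TM1 T4 replicate 3 the calls of LOX2, CLH1 and VSP1 were lost in TM1, at -0.995, -0.93 and -0.92, and 2 of the 5 genes were left. VSP1 was also lost without TM2 T4 replicate 1 (-0.98). HPL1, a hydroperoxide lyase that acts beside the jasmonate pathway, and the jasmonate-induced lectin JR1, both named after their values were seen, changed by -1.42 ± 0.14 and -1.14 ± 0.14.

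Of 28 measured salicylic acid and defence genes, 3 fell in both isolates and 0 rose, against 0.592% and 0.689% of all genes. The list's median was 0.38 in TM1, -0.04 in TM2 and 0.30 in WT. PR5, a pathogenesis-related protein, averaged 23.3 ± 2.43 FPKM at T4 and 58.1 ± 2.98 at T2 in TM1, and 31.0 ± 1.41 at T4 and 87.1 ± 9.11 at T2 in TM2. It fell in WT as well, to 11.3 ± 2.19 FPKM at T4, against 48.6 ± 1.798 at T2. WRKY62 and UGT76B1, an enzyme that attaches sugar to small defence molecules, were low genes, with at most 3.68 and 5.15 FPKM in the 12 mutant libraries. WRKY62 changed by -1.05 ± 0.23 in TM1 and lost its call there without TM1 T2 replicate 2 (-0.93) and without TM1 T4 replicate 2 (-0.99). UGT76B1 changed by -1.06 ± 0.25 in TM1 and lost its call there without TM1 T2 replicate 1 (-0.83) and without TM1 T4 replicate 2 (-0.96), which left 1 of the 3 genes.

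Among 36 genes of abscisic acid and water deficit, RD22 and RAB18 fell in both isolates and 0 rose, against 0.592% and 0.689% of all genes. The list's median was -0.16 in the mutants and 0.44 in WT. The mutant change was lower than the WT change for 11 of the 36 and higher for 0, against 2.97% and 1.06% of all genes. RD22 measured 368, 345 and 303 FPKM at T4 in TM1, against 1302, 1270 and 1353 at T2. In TM2 it had 345, 376 and 345 FPKM at T4, against 913, 931 and 926 at T2. The times were apart in both isolates, and RD22 changed by -1.95 ± 0.08 in TM1 and -1.38 ± 0.08 in TM2, against -0.48 ± 0.08 in WT. RAB18, a dehydrin, averaged 141 ± 3.91 FPKM at T4 and 360 ± 22.6 at T2 in TM1, and 154 ± 2.57 at T4 and 334 ± 17.4 at T2 in TM2. RAB18 was lower at T4 in WT as well, with 151, 151 and 163 FPKM, against 251, 214 and 229 at T2. LEA7, a late embryogenesis abundant protein, was among the 12 largest decreases of genes with a name, with 4.38, 1.25 and 2.48 FPKM at T4 in TM1, against 38.0, 33.9 and 31.2 at T2, and 7.24, 7.73 and 5.19 at T4 in TM2, against 16.7, 20.5 and 17.3 at T2. LEA7 changed by -3.34 ± 0.26 in TM1, -1.32 ± 0.26 in TM2 and -1.65 ± 0.26 in WT, past the threshold in all 3. The window before LEA7, chr1:19619474-19619723 on the plus strand, is shown because it holds the CACGTG core of the G-box, which is part of many elements that respond to abscisic acid. Capitals mark that CACGTG with the ACGTGT that overlaps it, a second ACGTGT, 2 AACCTAA and 1 CCGAC.
LEA7: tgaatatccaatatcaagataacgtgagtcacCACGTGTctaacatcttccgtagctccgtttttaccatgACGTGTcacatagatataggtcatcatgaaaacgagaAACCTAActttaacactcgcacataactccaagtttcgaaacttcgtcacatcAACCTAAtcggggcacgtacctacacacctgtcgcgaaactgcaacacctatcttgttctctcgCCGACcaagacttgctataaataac

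RCI2B, a small membrane protein of cold and salt responses, stood out by its opposite course in WT. It measured 0, 1.89 and 2.49 FPKM at T4 in TM1, against 10.6, 16.0 and 12.5 at T2. It measured 1.86, 1.07 and 0.736 at T4 in TM2, against 6.71, 6.94 and 6.40 at T2. In WT it measured 6.66, 13.8 and 12.1 FPKM at T4, against 0, 0.389 and 2.59 at T2. The mutant T2 libraries and the WT T4 libraries were the high ones. It changed by -2.68 ± 0.43 in TM1, -1.82 ± 0.43 in TM2 and 2.74 ± 0.43 in WT. RCI2B was the single shared lower gene past the threshold upward in WT. Its TM2 call was lost with a pseudocount of 0.1 (limma, adjusted p = 0.164) and with a pseudocount of 5 (-0.91). It was also lost without replicate 2 (0.0932) or replicate 3 (0.0502) in every group.

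Further decreases followed in other genes. ANNAT4, an annexin, averaged 1.46 ± 0.744 FPKM at T4 and 16.2 ± 0.0583 at T2 in TM1, and 3.72 ± 1.01 at T4 and 18.6 ± 2.73 at T2 in TM2. LBD1, a LOB-domain transcription factor, changed by -2.81 ± 0.46 in TM1 and -1.44 ± 0.46 in TM2, and its TM2 call had an adjusted p between 0.0671 and 0.172 without any 1 of 5 libraries of TM2. BAM5, a beta-amylase, was the 1 of 38 starch genes that fell in both isolates, and it changed by -2.05 ± 0.17 over them. UGT78D1, which adds rhamnose to flavonols, was the 1 of 18 flavonoid genes that fell, with a change of -1.04 ± 0.18 in TM1 and -1.44 ± 0.18 in TM2. Its TM1 call was lost without any 1 of 4 TM1 libraries, at -0.996 to -0.968. LP1, a lipid transfer protein named after its values were seen, fell to 75.6 ± 6.68 FPKM at T4 in TM1, against 233 ± 6.87 at T2. In TM2 LP1 fell to 82.1 ± 5.19 at T4, against 177 ± 15.3 at T2.

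Among the gene lists, that of rapidly induced touch and wound genes had the highest median change in the mutants. This rank is a description too, since the lists were chosen with earlier results of these data known. Of 21 measured genes of touch and quick wound responses, WRKY40, TCH3, CML38 and MPK11 rose in both isolates and 0 fell. Over all genes 0.689% rose and 0.592% fell. The list's median was 0.89 in the mutants, 1.36 in TM1 and 0.45 in TM2, against -0.05 for all genes. In WT it was 2.08, with 15 of the 21 genes past the threshold upward, against 3.66% of all genes. By the test of their difference, the mutant change was lower than the WT change for 10 of the 21, against 2.97% of all genes. WRKY40, a WRKY factor of defence and abscisic acid responses, measured 68.5, 72.3 and 68.6 FPKM at T4 in TM1, against 8.79, 9.31 and 8.52 at T2, and 43.1, 42.9 and 40.4 at T4 in TM2, against 18.5, 15.6 and 14.4 at T2. Every T4 library was above every T2 library within each isolate, and WT had the same order. The change was 2.84 ± 0.14 in TM1, 1.34 ± 0.14 in TM2 and 2.31 ± 0.14 in WT.

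TCH3 and CML38 encode calmodulin-like calcium sensors. TCH3 averaged 289 ± 17.59 FPKM at T4 and 51.6 ± 2.19 at T2 in TM1, and 171 ± 13.6 at T4 and 65.6 ± 5.99 at T2 in TM2, where it rose by 2.46 ± 0.09 and 1.37 ± 0.09. CML38 rose by 2.32 ± 0.28 in TM1 and 1.15 ± 0.28 in TM2, and its TM2 change was 0.99 without TM2 T4 replicate 1. The MAP kinase MPK11 rose by 1.13 ± 0.28 in TM2, and its TM2 change was 0.93 without TM2 T4 replicate 3. The ethylene response factors ERF6, ERF11 and RAP2.9 rose too. ERF6 measured 65.2, 60.8 and 66.0 FPKM at T4 in TM1, against 9.29, 8.88 and 6.05 at T2, and 18.6, 25.4 and 21.6 at T4 in TM2, against 8.89, 9.59 and 8.68 at T2. Its libraries separated by time in both isolates, and it rose by 2.86 ± 0.16 in TM1, 1.18 ± 0.16 in TM2 and 2.74 ± 0.16 in WT. Of 25 measured ethylene genes, ERF6 and ERF11 rose in both isolates and 0 fell, with a median of 0.21 that compares with 0.52 in WT.

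SAG21 is a senescence-associated mitochondrial protein of the LEA family that responds to stress. It measured 256, 233 and 293 FPKM at T4 in TM1, against 26.7, 25.7 and 24.2 at T2. It measured 166, 144 and 154 at T4 in TM2, against 37.7, 40.0 and 43.2 at T2. In WT it measured 54.2, 59.4 and 60 FPKM at T4, against 17.98, 20.4 and 28.2 at T2. The times did not overlap in any line, and the mutant T4 libraries lay above all WT libraries. SAG21 rose by 3.299 ± 0.15 in TM1, 1.91 ± 0.15 in TM2 and 1.37 ± 0.15 in WT, and the mutant change was larger by 1.24 ± 0.19 (limma, adjusted p = 1.02e-05). It was the 1 of 22 measured SAG, SEN, DIN and SRG genes that rose in both isolates, and 0 fell, at a median of 0.33 in the mutants and 0.42 in WT.

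Of 33 senescence transcription factors, NAC090, WRKY40 and NAC059 rose in both isolates and 0 fell, against 0.689% and 0.592% of all genes. A mean change above 0 was found for 31 of the 33 and for 7988 of all 19437 genes. The list's median was 0.42 in the mutants and 1.095 in WT. In WT 17 of the 33 were past the threshold upward, against 3.66% of all genes. The mutant change was lower than the WT change for 9 of the 33 and higher for 2, against 2.97% and 1.06% of all genes. The list holds regulators of both signs. The study names NAC092 (ORE1) and NAC029 (NAP) as positive and WRKY54 and WRKY70 as negative regulators of senescence. Counts in this list therefore give no direction of senescence. NAC090 measured 21.0, 18.1 and 19.4 FPKM at T4 in TM1, against 0.497, 0.310 and 0.191 at T2, and 6.07, 5.51 and 6.01 at T4 in TM2, against 0.297, 0.975 and 0.510 at T2. All T2 libraries of both isolates were under 1 FPKM, and all T4 libraries were well above them. It rose by 3.95 ± 0.24 in TM1, 2.13 ± 0.24 in TM2 and 2.02 ± 0.24 in WT. NAC059 averaged 4.98 ± 0.811 FPKM at T4 and 1.44 ± 0.429 at T2 in TM1, and 5.04 ± 0.744 at T4 and 1.33 ± 0.160 at T2 in TM2.

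Other named senescence regulators of the study had no shared change. NAC092 (ORE1) changed by 1.79 ± 0.25 in TM1 and 0.72 ± 0.25 in TM2. NAC029 (NAP) changed by 0.77 ± 0.22 in TM1 and -0.36 ± 0.22 in TM2 but rose by 3.52 ± 0.22 in WT, where it had 22.5, 23.1 and 22.02 FPKM at T4, against 1.18, 1.94 and 0.345 at T2. WRKY45 changed by 0.91 ± 0.26 in TM1, under the 2-fold limit, and by 1.36 ± 0.26 in TM2, and it would have passed without TM1 T2 replicate 1 (1.21). PSK4, SAG20, WRKY28 and WRKY75 changed by 0.94, 0.50, 0.23 and -0.18 over the isolates, the flowering genes FT and SOC1 by 0.51 and 0.17, and ANT and NIT2 by -0.18 and -0.59. WRKY75 had between 0 and 1.24 FPKM in the 12 mutant libraries.

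CYP81F2 was among the 12 largest increases of genes with a name. CYP81F2 and the methyltransferases IGMT1, IGMT2 and IGMT3 modify indole glucosinolates, sulfur compounds that are toxic to insects and microbes. CYP81F2 measured 32.3, 23.51 and 25.1 FPKM at T4 in TM1, against 3.05, 1.49 and 1.94 at T2. It measured 11.8, 8.82 and 11.3 FPKM at T4 in TM2, against 3.33, 2.95 and 2.81 at T2. The T4 libraries were above the T2 libraries in both isolates, and CYP81F2 rose by 3.16 ± 0.17 in TM1, 1.52 ± 0.17 in TM2 and 1.35 ± 0.17 in WT. It was the 1 of 29 glucosinolate genes that rose in both isolates. A mean change below 0 was found for 25 of the 29 and for 11306 of all 19437 genes. IGMT1, IGMT2 and IGMT3, named after their values were seen, rose by 1.26, 1.68 and 1.802 over the isolates, and reads of these neighbouring, near-identical genes may have been divided.

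PUB22 and CMPG1 are U-box ubiquitin ligases of defence responses and were named after their values were seen, as were WRKY26 and the receptor-like proteins RLP23, RLP34 and RLP38. PUB22 averaged 9.48 ± 0.703 FPKM at T4 and 1.499 ± 0.218 at T2 in TM1, and 5.37 ± 1.26 at T4 and 1.64 ± 0.159 at T2 in TM2, with no overlap between times. RLP23, which senses a peptide of microbes, measured 10.7, 10.7 and 10.7 FPKM at T4 in TM1, against 2.81, 2.86 and 2.84 at T2, and 13.8, 16.3 and 14.4 at T4 in TM2, against 3.74, 3.73 and 3.46 at T2. It rose by 1.61 ± 0.16 in TM1 and 1.76 ± 0.16 in TM2, and its libraries lay close together within a group. RLP34 and RLP38 rose by 1.16 and 1.26 over the isolates, against -0.15 and -0.08 in WT. PLA2A, a lipase of defence responses, rose by 3.17 ± 0.14 in TM1 and 2.04 ± 0.14 in TM2. PP2-B13, an F-box protein of the phloem protein family, had the largest mean increase of the named genes, with 4.59 ± 0.30 in TM1 and 1.58 ± 0.30 in TM2, and 2.86 ± 0.30 in WT. Without replicate 3 in every group its TM2 change was 1.18 and lost its call (limma, adjusted p = 0.112).

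The windows before SAG21, NAC090, CYP81F2 and PUB22 are shown because these genes rose together in both isolates and each window holds TTGACT or TTGACC, the W-box core that WRKY factors bind. They are the 250 bases before the annotated start in RefSeq TAIR10.1: chr4:1047106-1047355 (minus strand) for SAG21, chr5:7410103-7410352 (minus) for NAC090, chr5:23187590-23187839 (plus) for CYP81F2 and chr3:19442428-19442677 (minus) for PUB22. No other annotated gene overlaps these windows. Capitals mark each match to TTGACT or to TTGACC and, in NAC090, a match to CGCGTT, the core bound by calmodulin-binding transcription activators, on either strand.
SAG21: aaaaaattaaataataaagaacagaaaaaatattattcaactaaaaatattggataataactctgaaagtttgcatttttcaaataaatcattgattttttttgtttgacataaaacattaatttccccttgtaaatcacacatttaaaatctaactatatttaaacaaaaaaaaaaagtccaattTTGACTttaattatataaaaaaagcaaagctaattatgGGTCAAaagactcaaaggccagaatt
NAC090: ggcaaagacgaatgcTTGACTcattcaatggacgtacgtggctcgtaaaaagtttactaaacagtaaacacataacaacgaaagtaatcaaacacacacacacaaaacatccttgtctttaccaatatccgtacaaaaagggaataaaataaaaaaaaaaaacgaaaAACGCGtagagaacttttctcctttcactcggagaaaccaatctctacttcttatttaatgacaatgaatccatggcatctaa
CYP81F2: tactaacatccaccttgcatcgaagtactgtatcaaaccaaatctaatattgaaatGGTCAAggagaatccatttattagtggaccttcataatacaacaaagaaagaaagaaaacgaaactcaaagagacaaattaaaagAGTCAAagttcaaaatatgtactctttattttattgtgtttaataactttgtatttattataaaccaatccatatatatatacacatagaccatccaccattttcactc
PUB22: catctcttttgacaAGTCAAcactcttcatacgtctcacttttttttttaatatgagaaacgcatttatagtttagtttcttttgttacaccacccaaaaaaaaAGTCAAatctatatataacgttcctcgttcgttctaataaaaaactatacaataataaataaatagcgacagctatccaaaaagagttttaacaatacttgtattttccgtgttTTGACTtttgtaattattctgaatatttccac

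Over all shared changes, TTGACT on either strand was in 44% of the windows of the 134 higher genes, 15.7% of those of the 115 lower genes and 18.6% of 19331 windows of all genes. TTGACT or TTGACC was in 73 of the 134 windows (54.5%), 28 of the 115 (24.3%) and 5397 of all windows (27.9%). GATAAG was in 19.4%, 6.96% and 12.6%, GCCGCC, the core bound by ethylene response factors, in 4.48%, 0.87% and 2.04%, and CGCGTT, which was added after values were seen, in 6.72%, 0% and 2.83%. CACGTG ran the other way, with 4.48% of the higher, 12.2% of the lower and 7.44% of all windows. ACGTGT was most frequent in the lower genes, with 12.7% of the higher, 20% of the lower and 11.2% of all windows. The motifs CACGTG and ACGTGT can overlap. AATATCT was in 7.46%, 14.8% and 10.2%, AACCTAA in 4.48%, 6.96% and 5.28%, and CCGAC in 10.4%, 12.2% and 13.2%. A match is a stretch of letters and not a measured site.

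The nitrate reductase NIA1, which catalyses the first step of nitrate assimilation, rose in the mutants and not in WT. It measured 173, 196 and 163 FPKM at T4 in TM1, against 42.2, 46.4 and 45.7 at T2. It measured 170.3, 225 and 189.6 FPKM at T4 in TM2, against 67.5, 55.0 and 71.5 at T2. In WT it measured 38.2, 40.7 and 32.3 FPKM at T4, against 72.9, 66.9 and 67.0 at T2. The T4 libraries were the high ones in both isolates and the low ones in WT. NIA1 rose by 1.96 ± 0.14 in TM1 and 1.58 ± 0.14 in TM2, and changed by -0.88 ± 0.14 in WT, under the 2-fold limit. The mutant change was larger than the WT change by 2.65 ± 0.17 (limma, adjusted p = 3.28e-13). The second nitrate reductase, NIA2, named after its values were seen, changed by 0.93 in TM1, 1.00 in TM2 and -0.64 in WT. Its difference to WT was past the threshold as well, although reads of the 2 related genes may have been divided. LBD39, a repressor of nitrate-responsive genes, was the other of 27 measured nitrogen genes that rose, by 2.15 ± 0.32 in TM1 and 1.03 ± 0.32 in TM2, and its TM2 adjusted p was between 0.0525 and 0.113 without any 1 of 5 libraries. Of the 27 genes 0 fell, and their median was 0.19 in the mutants and 0.16 in WT.

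Several transport and calcium genes rose in the mutants and did not pass the test in WT. DTX50, a MATE transporter of abscisic acid, measured 76.0, 67.4 and 65.4 FPKM at T4 in TM1, against 16.8, 15.5 and 12.3 at T2, and 52.3, 58.3 and 56.6 at T4 in TM2, against 20.6, 20.3 and 20.5 at T2. The isolates' times were apart, while WT had 22.1, 19.8 and 21.0 at T4, against 21.4, 16.2 and 18.19 at T2, with overlap. CAX3, a vacuolar calcium exchanger, averaged 2.84 ± 0.186 FPKM at T4 and 0.352 ± 0.121 at T2 in TM1, and 6.07 ± 0.872 at T4 and 0.749 ± 0.351 at T2 in TM2. WT libraries of CAX3 were at 0 to 0.525 FPKM, and its difference to WT lost its call with voom (adjusted p = 0.173). CML41, a calmodulin-like protein, had the larger change in TM2, with 37.2, 45.2 and 34.2 FPKM at T4, against 3.98, 3.09 and 2.66 at T2, than in TM1, with 6.79, 5.88 and 5.76 at T4, against 0.416, 2.25 and 4.91 at T2. T2 replicate 1 of TM1 was the lowest of its group, and without it the TM1 change of CML41 was 0.70 with an adjusted p of 0.0917. The difference between the isolates, -1.99, lost its call with voom (adjusted p = 0.154), with a pseudocount of 0.1 (0.281) and without replicate 2 (0.2) or replicate 3 (0.161) in every group. FRB1, an O-fucosyltransferase-like protein of cell adhesion, rose by 1.504 ± 0.18 in TM1 and 1.32 ± 0.18 in TM2, against -0.30 ± 0.18 in WT. DIC2, a mitochondrial dicarboxylate carrier, and PUP18, a purine permease-like protein, rose in all 3 lines, DIC2 by 3.74 ± 0.11 in TM1, 1.06 ± 0.11 in TM2 and 2.603 ± 0.11 in WT. Without TM2 T4 replicate 2 the TM2 change of DIC2 was 0.93.

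Of the shared higher genes, 79 of 134 were also higher in WT, where 3.66% of all genes were, and 1, AT4G12490, was lower. Of the shared lower genes, 36 of 115 were also lower in WT, where 1.34% of all genes were, and 1, RCI2B, was higher. The WT change had the same sign as the mutant change for 125 of the higher genes (93.3%) and 99 of the lower genes (86.1%). The median WT change was 1.18 for the higher genes and -0.63 for the lower genes, against 1.57 and -1.44 in the mutants. The test of the mutant change minus the WT change called 207 genes higher (1.06%) and 577 lower (2.97%) over the whole table, 4.03% in all. Under median ratio scaling 40.0% of these calls were higher and under quantile normalisation 41.4%, against 26.4% here. Among the shared higher genes it called 25 higher and 3 lower, and among the shared lower genes 47 lower and 0 higher. The difference contains the mutant change by which these genes were chosen, which pushes the counts in that direction, so nothing is read from them.

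**Figure D3:**
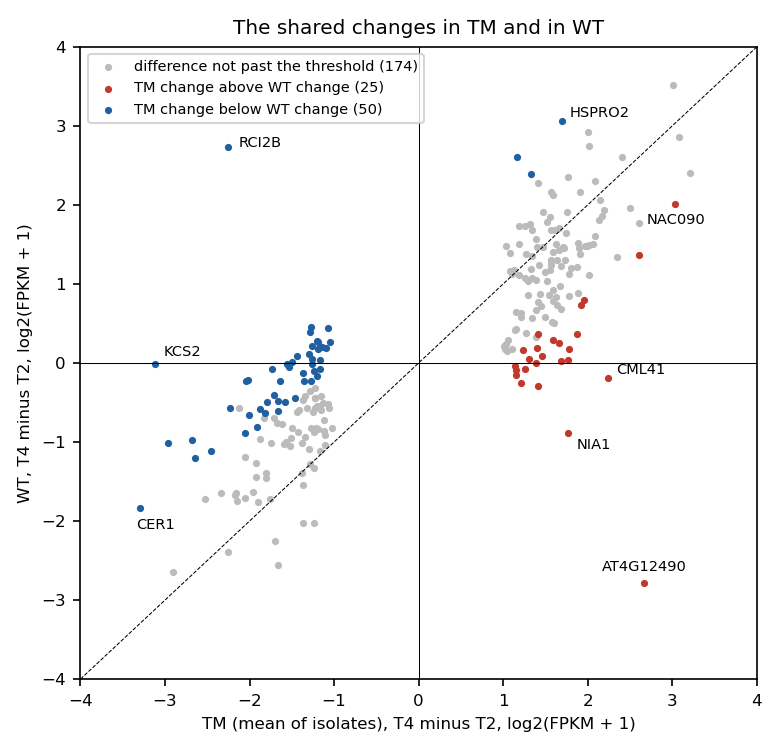
Mean change of the isolates at T4 relative to T2 (horizontal axis) and the WT change (vertical axis), in log2 differences of FPKM + 1, for the shared changes. Points are coloured where the difference between mutant and WT change passed the test. NIA1 and AT4G12490 lie to the right with a WT change below 0, and RCI2B lies to the left with a WT change above 0.

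The 6 largest differences in each direction among shared changes were chosen by rule among genes with a name. The higher ones were NIA1, CML41, CAX3, FRB1, IGMT2 and DTX50, with differences between 1.61 and 2.65. The lower ones were RCI2B, KCS2, CAD9, ZW9, PLAT2 and EXPA16, with differences between -4.99 and -1.71. PLAT2, a protein of abiotic stress responses, measured 12.8, 13.3 and 11.8 FPKM at T4 in TM1, against 35.6, 34.6 and 28.3 at T2, and 15.2, 14.6 and 10.3 at T4 in TM2, against 31.5, 29.4 and 36.3 at T2. WT had 43.4, 36.5 and 41.1 FPKM of PLAT2 at T4, against 26.6, 34.3 and 27.2 at T2, so that its T4 libraries lay above its T2 libraries in WT and below them in both isolates. AT4G12490, named after its values were seen, had the largest difference of all shared changes, 5.45 ± 0.30. It measured 17.8, 12.7 and 12.8 FPKM at T4 in TM1, against 0.726, 0.181 and 0.447 at T2, and 7.96, 7.44 and 10.5 at T4 in TM2, against 3.13, 0.760 and 1.19 at T2. WT ran the other way, with 0, 0.367 and 0.681 at T4, against 9.47, 7.06 and 7.96 at T2. Similar genes stand beside it on the chromosome, and their reads may have been divided.

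HSPRO2, a defence gene named after its values were seen, was 1 of 3 shared higher genes whose change was called lower in the mutants than in WT. It averaged 217 ± 26.9 FPKM at T4 and 43.5 ± 4.68 at T2 in TM1, 87.0 ± 6.51 at T4 and 40.0 ± 0.665 at T2 in TM2, and 293 ± 16.0 at T4 and 34.4 ± 4.16 at T2 in WT. The other two, also named after their values were seen, were J11 and AGP1. The NAC090 difference, 1.02 ± 0.29, lost its call without any 1 of 6 libraries, at 0.81 to 0.99: TM1 T2 replicate 3, TM1 T4 replicate 1, TM2 T2 replicate 1, WT T2 replicate 3, and WT T4 replicates 2 and 3.

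Shared changes have the same direction in both isolates by the rule, and their sizes could be compared. The change in TM1 minus that in TM2 was past the threshold upward for 181 genes (0.931%) and downward for 114 (0.587%) of the whole table, 1.52% in all. Among the shared higher genes the difference was upward for 28 and downward for 1, CML41, a call that was lost under the settings given above. Among the shared lower genes it was downward for 16 and upward for 0. Of the genes named, the largest were KCS2 at -3.02 ± 0.31, PP2-B13 at 3.01 ± 0.42, DIC2 at 2.68 ± 0.16 and LEA7 at -2.02 ± 0.37. For KCS2 the isolates lay apart at T2, with means of 47.7 FPKM in TM1 and 9.96 in TM2, and near each other at T4, with 0.982 and 2.65. For DIC2 they lay apart at T4, with 313 FPKM in TM1 and 61.1 in TM2, and near each other at T2, with 22.5 and 28.5.

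**Figure D4:**
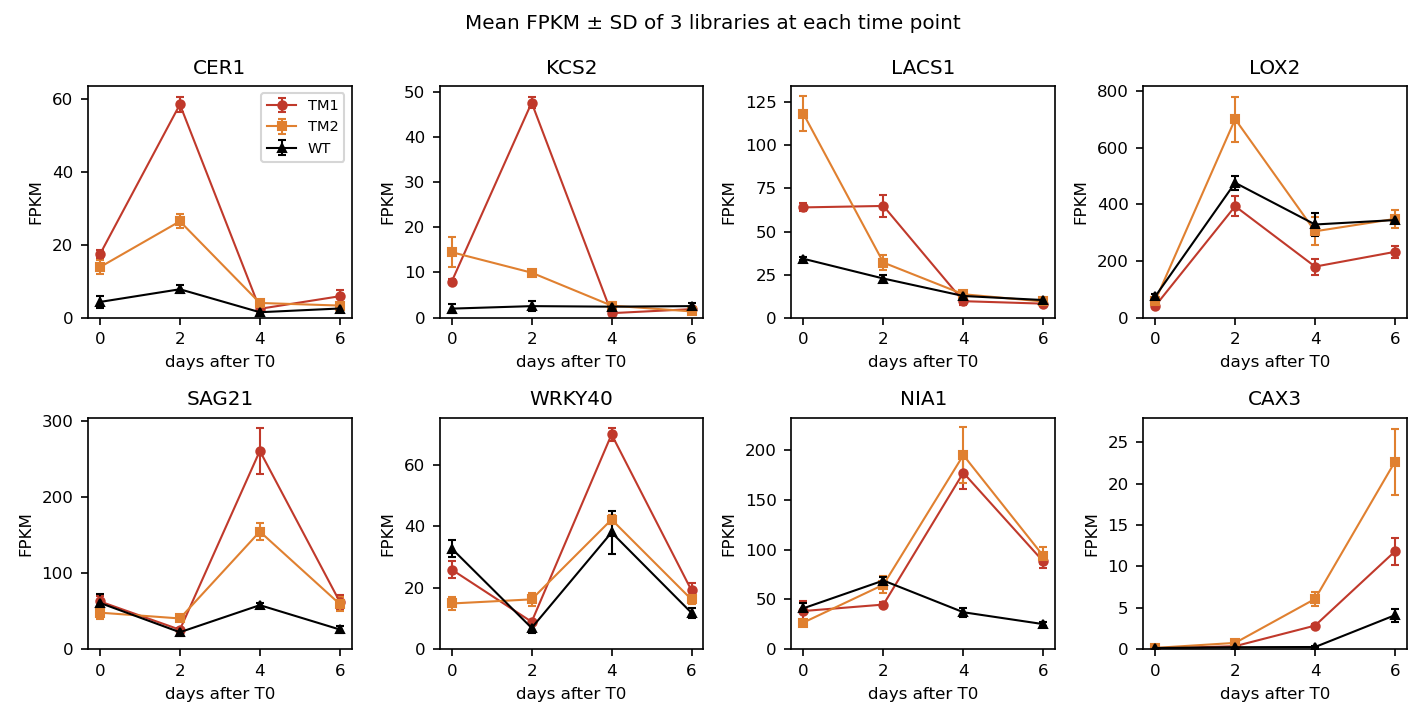
Mean FPKM with SD of 3 libraries, on a linear axis, at T0, T2, T4 and T6 (25, 27, 29 and 31 days) in TM1, TM2 and WT for genes the text turns on. CER1 is highest at T2 in both isolates and KCS2 in TM1, while SAG21 and NIA1 are highest at T4 in both.

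The levels over the 4 times are a description, since the rule used T4 and T2 and so tends to place an extreme at either in the mutants. The median FPKM of the higher genes at T0, T2, T4 and T6 was 13, 7.797, 31.89 and 18.11 in TM1, 11.88, 7.457, 21.69 and 17.71 in TM2, and 13.65, 7.106, 18.84 and 12.34 in WT. Of the 134 higher genes 83 were lowest at T2 in both isolates and 81 were highest at T4 in both, while 95 were lowest at T2 in WT. The median of the lower genes was 5.611, 13.87, 2.856 and 2.799 in TM1, 5.182, 14.01, 4.37 and 3.366 in TM2, and 5.409, 8.973, 4.845 and 4.518 in WT. Of the 115 lower genes 88 were highest at T2 in both isolates and 78 in WT. CER1 measured 17.4, 58.4, 2.41 and 5.85 FPKM over these times in TM1, and 13.8, 26.4, 4.01 and 3.295 in TM2. SAG21 measured 62.7, 25.5, 261 and 62.3 FPKM in TM1, and 47.9, 40.3, 155 and 59.3 in TM2. NIA1 measured 38.3, 44.8, 177 and 88.2 FPKM in TM1, and 26.7, 64.7, 195 and 93.7 in TM2.

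The change between T6 and T0 uses other libraries than the change between T4 and T2. It was shared by the isolates for 810 higher genes (4.17%) and 567 lower genes (2.92%), 7.08% in all, a split of 58.8% higher that was 44.3% under median ratio scaling and 44.7% under quantile normalisation. Of the genes higher at T4, 32 of 134 were also higher at T6 relative to T0. The 4 that were lower were IGMT2 and, named after their values were seen, AT1G05675, AT2G15880 and AT3G15356. Of the genes lower at T4, 43 of 115 were also lower at T6 and 12 were higher. CER1, KCS2, LACS1, LACS2, CER2 and CYP86A2 were among the 43. The jasmonate-related genes TAT3, VSP2, CLH1, LOX2 and JR1 and the water-deficit gene LEA7 were among the 12, so that they fell at T4 relative to T2 but rose at T6 relative to T0. NIA1, DTX50, CAX3, CML41, NAC059 and PLA2A rose in both comparisons.

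Of 27 gene lists, 13 had 0 members with a shared change. Chlorophyll breakdown had CLH1 as the 1 of 13 measured genes that fell, and 0 rose. The list of 398 bolting-associated genes was chosen by the study on these same libraries and is therefore not independent evidence. It had 13 members that rose and 26 that fell in both isolates, against 0.689% and 0.592% of all genes. The median of this list was -0.05 in the mutants and 0.16 in WT. The mutated genes ATX1, ATX3 and ATX4 changed by -0.31 ± 0.14, 0.24 ± 0.11 and -0.16 ± 0.12 over the isolates. ATX1 averaged 3.29 FPKM at T4 and 4.45 at T2 in TM1, 3.49 at T4 and 4.50 at T2 in TM2, and 5.27 at T4 and 5.73 at T2 in WT. Reads counted over a whole gene need not cross an insertion, so these levels check nothing about the alleles.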

How the data were processed

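The authors made directional cDNA libraries (BrAD-seq) from leaf 6, aligned reads to TAIR10 with Rsubread, computed FPKM with NOISeq and removed low genes with HTSFilter. The 36 libraries and 19437 genes of the deposited FPKM table were all used, with values unaltered. Strand use in counting is not given in the sources used here, so overlapping and near-identical genes are uncertain. For 19437 of 19437 genes the values came out as whole reads (tolerance 0.02 reads), which gave the depths and served in 1 alternative. Depths limit counting error only.

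log2(FPKM + 1) was fitted with limma 3.58.1 in R 4.3.3, with 12 group means over 36 libraries, eBayes with a trend and Benjamini-Hochberg adjustment within each contrast. The contrasts were T4 minus T2 in TM1, in TM2 and in WT, their mean over the isolates, the mutant minus the WT change, the TM1 minus the TM2 change, and T6 minus T0. A call needed an adjusted p under 0.05 and a 2-fold change. No further filter on low values was applied. On simulated data 200 of 200 genes changed 4-fold were recovered in this comparison over 19437 genes, and 0 unchanged genes were called. The changed genes were drawn from those that were not low, and 1 assumed spread between libraries was used for all genes. The simulation therefore says nothing of low genes or of changes near the 2-fold limit. An exact two-sided permutation test within isolates (400 arrangements) gave 0.005, the smallest p it allows, for each named gene with a shared change. Libraries that do not overlap in either isolate fix this value, so it adds nothing to the choice of the genes.

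The members and gene lists were chosen with earlier results of these data known, and no list is independent evidence. Genes named are the 12 shared changes of largest mean change, up and down, whose libraries do not overlap, the 6 with the largest difference to WT in each direction, up to 4 members of each list, ATX1, ATX3, ATX4 and 12 examples of the study, passing over unnamed loci. Genes added after their values were seen are marked so in the text. Of the 19437 identifiers 19332 were in the gene table of TAIR10.1 and 8012 had a symbol. Promoter windows and positions came from RefSeq TAIR10.1, with both strands searched. The library letters did not pair the samples. Alternatives were other pseudocounts, a filter on low values, median ratio and quantile scaling, voom on whole reads, a fit on the 12 mutant libraries with isolate as a block, other fold limits, a replicate block and leaving out libraries. Python 3.11.15, numpy 2.4.6, pandas 2.3.3 and matplotlib 3.10.9 were used. The authors' public comparison data were not analysed here.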

Additional observations from a re-analysis of the deposited data

Results flagged for a closer look

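The change of the mutants at T4 relative to T2 minus that of WT passed the test for 784 genes, and the change of TM1 minus that of TM2 passed it for 295 genes. These are differences between lines tested in the same fit, and the following values are log2 differences of FPKM + 1.

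Among named genes the mutant change was above the WT change for AT4G12490 by 5.45, NIA1 by 2.65, CML41 by 2.43, CAX3 by 1.73, FRB1 by 1.71, IGMT2 by 1.65, DTX50 by 1.61, RLP38 by 1.33, RLP34 by 1.303, SAG21 by 1.24 and NAC090 by 1.02. It was below the WT change among genes that rose or had no shared change for HSPRO2 (-1.37) and NAC029 (-3.31).

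Among genes of the cuticle and cell wall the difference to WT was -3.11 for KCS2, -1.46 for CER1, -1.35 for CER2, -1.16 for LACS2, -1.11 for LACS1, -1.13 for LP1, -1.95 for CAD9, -1.71 for EXPA16, -1.25 for EXPA3 and -1.01 for FLA1. The FLA1 difference was lost without any 1 of 9 libraries, at -0.999 to -0.827, and that of LP1 without WT T2 replicate 1, at -0.98. Among genes of jasmonate, defence and water deficit it was -1.66 for TAT3, -1.34 for JR1, -1.09 for VSP2, -1.68 for WRKY62, -1.09 for UGT76B1 and -1.19 for RD22. The VSP2 difference was -0.96 without TM1 T4 replicate 1 and -0.91 without WT T2 replicate 2, and the UGT76B1 difference was -0.97 to -0.96 without TM1 T2 replicate 1, TM2 T2 replicate 3 or TM2 T4 replicate 2. It was -4.99 for RCI2B, -1.80 for ZW9, -1.72 for PLAT2 and -1.34 for ANNAT4.

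The change in TM1 was above that in TM2 for PP2-B13 by 3.01, DIC2 by 2.68, NAC090 by 1.82, ERF6 by 1.68, CYP81F2 by 1.64, WRKY40 by 1.51, AT4G12490 by 1.49, SAG21 by 1.39, PUP18 by 1.34, HSPRO2 by 1.19, NAC029 by 1.13, RAP2.9 by 1.13, PLA2A by 1.12 and TCH3 by 1.09. It was below that in TM2 for KCS2 (-3.02), LEA7 (-2.02), CML41 (-1.99), CAD9 (-1.88), CER1 (-1.69), EXPA16 (-1.60), CER2 (-1.60), LACS1 (-1.49), LACS2 (-1.48), AT2G41170 (-1.37), AT5G45950 (-1.16) and CYP86A2 (-1.14). The NAC029 and AT5G45950 differences between isolates were lost without any 1 of 8 libraries each, with adjusted p of 0.0671 to 0.0968 and 0.0521 to 0.0987 in limma. The PLA2A difference was 0.998 and under the limit without TM2 T2 replicate 1, and that of RAP2.9 was lost without TM1 T2 replicate 3 or TM2 T2 replicate 1.

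With voom on whole reads the differences to WT of NAC090, UGT76B1 and CAX3 and the differences between isolates of CML41, AT4G12490, NAC090, NAC029, RAP2.9 and AT5G45950 were lost. With a pseudocount of 0.1 those to WT of NAC090, UGT76B1 and VSP2 and those between isolates of CML41, AT4G12490, NAC029, LEA7 and AT5G45950 were lost. For AT4G12490 the difference between isolates had an adjusted p of 0.0688 with voom, 0.157 with a pseudocount of 0.1 and 0.0603 to 0.127 when a replicate letter was left out in every group.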

How the results depend on the processing

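The shared changes numbered 249, and 559 in a fit of the 12 mutant libraries with isolate as a block, which calls the mean change of the isolates and included all 249, 382 with voom on whole reads, of which 242 were among the 249, 96 with a pseudocount of 5, 860 at a 1.5-fold limit and 1529 with no fold limit. With a pseudocount of 5, 33 of 71 named genes kept their call. The WT comparison had 972 calls, and 1547 with voom, 414 with a pseudocount of 5, 3030 at 1.5-fold and 5059 with no limit. The mutant minus WT test had 784 calls, and 285 with a pseudocount of 5, 2370 at 1.5-fold and 3360 with no limit, with 37.8% higher under voom. The TM1 minus TM2 test had 295 calls, and 140, 638 and 757 under the same settings. The T6 against T0 comparison had 1377 calls, and 609, 3467 and 5357. The first component held 26.7% of the variance with scaled genes.

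Leaving out 1 library, or 1 replicate letter in every group, gave 229 to 256 shared changes, 921 to 1058 WT calls, 596 to 826 mutant minus WT calls, 161 to 310 TM1 minus TM2 calls (161 without replicate 1 and 188 without replicate 2 in every group), 1294 to 1323 T6 against T0 calls and 61 to 71 named genes. Of 2547 recomputed values of single genes 99 fell under the threshold and 5 came past it. A change of direction was counted only for genes with a shared call in the main or the other setting, and 0 were found. In a leave-out 18 named genes lost their call. The letters did not pair the samples (r of -0.102 to 0.0318), and with the replicate block there were 251 shared changes, 970 WT, 783 mutant minus WT, 297 TM1 minus TM2 and 1378 T6 against T0 calls, with 71 named genes kept. The 3 libraries of 1 pool, 1 harvest day a time and values of low genes near 1 FPKM limit these results.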

Other observations

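Over all genes 2.97% had a lower change in the mutants than in WT by the test of that difference. The single genes in this paragraph were named after their values were seen. All 20 genes of the light-harvesting antenna had a mean change below 0 in the mutants at T4 relative to T2, as did 11306 of all 19437 genes. The antenna median was -0.25, against 0.26 in WT, and for 4 of the 20 the mutant change was lower than the WT change. LHB1B1 changed by -0.44 over the isolates and 1.41 in WT, and LHCB3 by -0.30 and 0.95. Of 20 Rubisco and Calvin cycle genes 0 had a shared change and 0 differed from WT, with medians of -0.26 in the mutants and -0.13 in WT. Of 17 genes of the sulfur deficiency response, which are induced when sulfate runs short, 0 had a shared change, and for 7 the mutant change was lower than the WT change. LSU1 changed by 2.38 in TM1, 0.77 in TM2 and 4.37 in WT, and SDI2 by 0.29, -0.38 and 2.31. Of 9 ATG8 genes of autophagy 0 had a shared change, with a median of -0.04 in the mutants and 0.55 in WT, and for ATG8C and ATG8E the mutant change was lower than the WT change. Of 17 cold-response genes 0 had a shared change, the mutant change was lower than the WT change for 6 and higher for 1, and STZ changed by 0.89 over the isolates and 2.63 in WT. RD26, a NAC factor of water deficit and senescence, changed by 0.20 in TM1, -0.08 in TM2 and 2.71 in WT.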
